A study of Homo sapiens with 14 samples.

Results

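The genes described here encode the machines that fold and hold chromosomes: the condensin subunits NCAPG, NCAPH and NCAPD2 (condensin I), NCAPG2 and NCAPD3 (condensin II) and SMC2 and SMC4 (shared by both), the cohesin subunits SMC1A and SMC3, and topoisomerase II alpha (TOP2A). Members were chosen by name: every probe whose platform annotation gives one of these 10 symbols was taken. The genes were listed with earlier results of these data known. Counts set beside shares of all genes therefore describe them and carry no test. This gave 14 of the 47323 distinct probes, for 9 of the 10 genes. SMC1A had no probe with that symbol in the annotation used and was not analysed here. NCAPG, NCAPH, NCAPD2, NCAPG2, NCAPD3 and TOP2A had 1 probe each, SMC2 and SMC4 had 3 each and SMC3 had 2, and all 14 passed the filter on dim probes, a detection p-value under 0.05 on at least 2 arrays. RNA was profiled on 14 Illumina arrays from LNCaP, a human prostate cancer line grown with 10% fetal bovine serum, and LNCaP-abl, its subline grown in phenol red-free medium with 10% charcoal-stripped serum, which is depleted of steroid hormones. In each line 3 arrays held cells given 50 µM dilazep, an inhibitor of adenosine uptake, for 48 h, 2 arrays held cells given H2O and 2 held cells given DMSO. Dilazep was under study as a way to target the transcription factor GATA2. The protocol attached to the control arrays mentions another compound, bufalin, so a difference between experiments and an effect of dilazep cannot be told apart. Each line is a single cell line, line and serum differ together, and no label says that replicates were separate cultures, so p-values measure the spread between these arrays, which may be technical.

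Condensins are ring complexes built on the ATPase pair SMC2 and SMC4, which extrude DNA loops and compact chromosomes for mitosis. Condensin I and condensin II differ in their kleisin (NCAPH or NCAPH2) and their HEAT-repeat subunits (NCAPD2 and NCAPG, or NCAPD3 and NCAPG2). Condensin II is nuclear throughout the cell cycle, and condensin I reaches the chromosomes after the nuclear envelope breaks down. Cohesin, built on SMC1A and SMC3, holds sister chromatids together and also shapes interphase chromatin loops, so cells need it outside mitosis too. TOP2A passes DNA strands through each other to untangle sister chromatids, and its RNA is known to peak in G2 and mitosis.

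Fewer probes were detected on dilazep arrays than on controls in LNCaP (18482 to 18912 against 19100 to 19856, with no overlap), and the ranges overlapped in LNCaP-abl (17925 to 18807 against 18495 to 19196). Median signal was 144.6 to 154.6 per array, and LNCaP-abl dilazep array 1 was lowest in both measures. Replicates of a group correlated at 0.9854 to 0.9913. Of 7 annotated markers of luminal prostate epithelium, 6 were detected on all 14 arrays, and KLK3 on 11, with no detection on the 3 LNCaP-abl dilazep arrays. With dilazep, 1 of these 7 was lower and 2 higher in LNCaP (log2 changes from -0.59 to 0.46). In LNCaP-abl 3 were lower and 3 higher (from -2.39 to 0.62). Over all genes 39.6% and 46.5% were called in these lines. Of the 9 annotated markers of other cell types, PECAM1 and SYP were detected on no array and CD14 on 1. VIM and CD68 were detected on all 14. Of the 6 measured, CD68 was higher with dilazep in LNCaP (1.01) and LNCaP-abl (0.54), VWF was lower (-1.82 and -0.89) and INSM1 was higher in LNCaP-abl (0.49), all as log2 changes at the brightest probe. The other CD68 probes gave 0.14 and 0.06 in LNCaP, neither called, and 1.82 (adjusted p = 1.79e-07) and 0.55 (adjusted p = 0.112) in LNCaP-abl. The linear level of CD68, the measured immune marker, ran from 477 to 510 on LNCaP control arrays, 775 to 1290 with dilazep, 514 to 838 on LNCaP-abl controls and 959 to 1070 with dilazep. That of VWF ran from 322 to 397, 89.1 to 112, 51.9 to 61.4 and 24.1 to 39.8 in the same order. The part of detection and of these markers in the changes below was not tested.

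Promoter sequences are shown for TOP2A and NCAPG, the members with the largest falls in LNCaP-abl, and for NCAPD3, whose second window held all 3 kinds of motif searched. The promoter of SMC3 is shown too, as its brighter probe had the smallest fall in LNCaP-abl with the main processing. Each is a 300-base window around a RefSeq start (GRCh38.p14), read 5′ to 3′ on the gene's strand, and capitals mark the motifs. The motifs were the cell cycle genes homology region (CHR, TTTGAA or TTTAAA), an element of many mitotic promoters, the CCAAT box (CCAAT), which binds NF-Y, and an E2F site (TTTCCCGC, TTTGGCGC, TTTCGCGC or TTTGCCGC), each sought on both strands. No marked motif in these windows overlaps another.
TOP2A, chr17:40417847-40418146, minus strand: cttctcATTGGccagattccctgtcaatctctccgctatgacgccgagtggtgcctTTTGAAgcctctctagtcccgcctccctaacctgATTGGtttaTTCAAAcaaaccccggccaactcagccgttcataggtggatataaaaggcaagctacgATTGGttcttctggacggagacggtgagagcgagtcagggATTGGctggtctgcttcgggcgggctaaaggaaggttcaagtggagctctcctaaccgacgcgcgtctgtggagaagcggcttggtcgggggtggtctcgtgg
NCAPG, chr4:17810729-17811028, plus strand: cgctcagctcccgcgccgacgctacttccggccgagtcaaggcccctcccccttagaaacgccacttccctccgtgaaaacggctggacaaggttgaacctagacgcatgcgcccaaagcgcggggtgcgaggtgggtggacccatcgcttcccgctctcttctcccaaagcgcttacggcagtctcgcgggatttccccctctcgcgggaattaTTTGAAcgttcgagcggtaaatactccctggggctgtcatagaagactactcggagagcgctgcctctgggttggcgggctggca
NCAPD3, second window, chr11:134223918-134224217, minus strand: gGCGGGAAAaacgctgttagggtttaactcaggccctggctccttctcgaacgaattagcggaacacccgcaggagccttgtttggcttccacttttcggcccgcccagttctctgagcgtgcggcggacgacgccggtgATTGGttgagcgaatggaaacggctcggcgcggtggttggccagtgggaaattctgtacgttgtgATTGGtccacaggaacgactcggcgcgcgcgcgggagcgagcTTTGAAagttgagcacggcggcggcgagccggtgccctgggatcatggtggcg
SMC3, chr10:110567445-110567744, plus strand: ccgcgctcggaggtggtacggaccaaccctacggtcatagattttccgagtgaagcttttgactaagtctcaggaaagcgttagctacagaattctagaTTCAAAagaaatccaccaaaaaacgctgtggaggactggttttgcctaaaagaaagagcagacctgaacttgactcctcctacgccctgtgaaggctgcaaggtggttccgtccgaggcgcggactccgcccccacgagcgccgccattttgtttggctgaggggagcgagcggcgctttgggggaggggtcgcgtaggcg
The TOP2A window held 2 CHR matches and 4 CCAAT boxes, all 4 of them reading ATTGG on the gene's strand. NCAPG held 1 CHR match and no CCAAT box. NCAPD3 held 1 CHR match, 2 CCAAT boxes and 1 E2F site, and SMC3 held 1 CHR match on the opposite strand. Among all 35116 promoter windows of this length, 24.0% held a CHR match, 34.6% a CCAAT box and 3.31% an E2F site. All 10 member genes matched the table, with 14 windows, of which 9 held a CHR match, 4 a CCAAT box and 2 an E2F site. At least 1 window had a CHR match in 9 of the 10 genes, all but SMC1A. As 4 of these genes had more than 1 window, this count per gene cannot be set against the share per window. The CCAAT boxes lay in NCAPH, NCAPD2, NCAPD3 and TOP2A, and NCAPD2 had 4 of them beside its CHR match. The files name no genome build, so these windows were not tied to probe positions, and a match describes letters and not a bound site.

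Dilazep was followed by lower RNA of nearly all these genes in both lines, and by much lower RNA of NCAPG and TOP2A in LNCaP-abl. With each gene represented by its brightest probe, 8 of 9 genes fell in LNCaP (median log2 change -1.02) and none rose, where 17.8% of all 11983 genes tested were lower and the median of all genes was 0.04. In LNCaP-abl, 9 of 9 fell (median -2.05), where 21.5% of all genes were lower and the median was again 0.04. The response was more negative in LNCaP-abl for 8 of 9 genes (median -0.96), where 15.1% of all genes differed that way. Counted over probes, 10 of 14 fell in LNCaP and 12 of 14 in LNCaP-abl, where 16.3% and 17.3% of all probes were lower. Changes are limma differences of normalized log2 levels (dilazep minus control, with both vehicles weighted equally) over 3 dilazep and 4 control arrays per line, and adjusted p is Benjamini-Hochberg over all 24894 probes tested, called under 0.05. In bulk RNA, fewer cells in a cell cycle phase and less RNA per cell cannot be told apart. With median scaling in place of quantile normalization 8, 9 and 9 of 9 genes were called for these comparisons, while the higher share of all called probes went from 51.9% to 35.5% in LNCaP-abl and from 50.2% to 26.0% for the difference, whose median over all probes moved to -0.13.

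**Figure D1:**
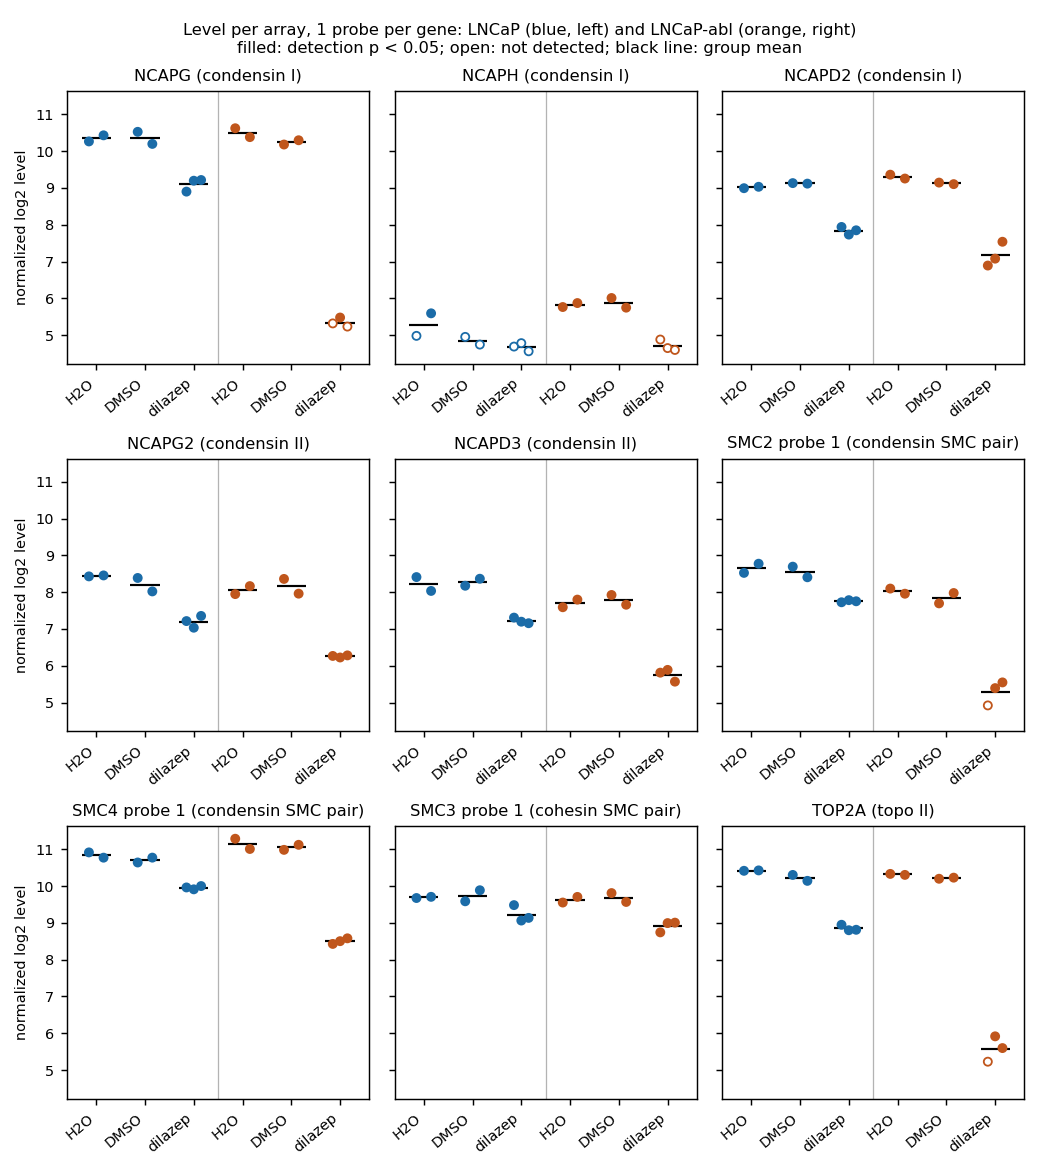
Normalized log2 level (vertical axis) of each of the 9 genes on every array, by vehicle or dilazep in LNCaP and LNCaP-abl. Each point is 1 array, open where the probe was not detected, and black lines are group means. NCAPG and TOP2A drop from above 10 to below 6 in LNCaP-abl with dilazep, while the lowest SMC3 array reads 8.74.

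NCAPG, the HEAT-repeat subunit of condensin I that helps it grip DNA, showed the largest fall of all members in LNCaP-abl. Its log2 level in LNCaP was 10.26 and 10.43 with H2O, 10.52 and 10.20 with DMSO, and 8.90, 9.20 and 9.21 with dilazep. In LNCaP-abl it was 10.62 and 10.38 with H2O, 10.18 and 10.29 with DMSO, and 5.32, 5.48 and 5.23 with dilazep. Dilazep and control arrays did not overlap in either line, and only 1 of the 3 LNCaP-abl dilazep arrays still had NCAPG above background. The changes were -1.25 (SE 0.13, adjusted p = 2.2e-05) in LNCaP and -5.02 (SE 0.13, adjusted p = 6.51e-11) in LNCaP-abl, or 2.38-fold and 32.5-fold lower. The responses differed by -3.77 (SE 0.18, adjusted p = 1.17e-07). The size depended on the processing: the LNCaP-abl change was -3.16 without background correction and -2.59 in the authors' processed values, and the difference -2.08 and -1.56, all called.

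NCAPD2, the other HEAT-repeat subunit of condensin I, fell in both lines from like starting levels. Its log2 level in LNCaP was 8.99 and 9.03 with H2O, 9.13 and 9.12 with DMSO, and 7.94, 7.73 and 7.85 with dilazep. In LNCaP-abl it was 9.36 and 9.25, 9.14 and 9.10, and 6.89, 7.08 and 7.54 in the same order. Every dilazep array lay below every control array of its line. NCAPD2 changed by -1.23 (SE 0.14, adjusted p = 4.2e-05) in LNCaP and -2.05 (SE 0.14, adjusted p = 1.89e-07) in LNCaP-abl. The difference of -0.82 (SE 0.19, adjusted p = 0.00996) was lost with DMSO as the only control (adjusted p = 0.074). In the authors' processed values the changes were -0.76 and -1.16, both called.

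NCAPH, the kleisin that closes the condensin I ring, was near background. It was detected on 5 of 14 arrays: 1 LNCaP control array and the 4 LNCaP-abl control arrays. Its log2 level in LNCaP-abl was 5.76 and 5.87 with H2O, 6.01 and 5.75 with DMSO, and 4.88, 4.65 and 4.60 with dilazep, with no overlap. It was therefore at least 1.41-fold lower in LNCaP-abl (fitted change -1.14, SE 0.15, adjusted p = 6.35e-05), where a bound uses the lowest level among detected probes of each dim array and, here and below, holds on the background-corrected scale alone. The NCAPH change was -0.42 without background correction and -0.24 in the authors' processed values, both called. In LNCaP its levels were 4.98 and 5.59 with H2O, 4.95 and 4.74 with DMSO, and 4.69, 4.78 and 4.56 with dilazep. These groups overlapped, and the fitted change of -0.39 (adjusted p = 0.0651) did not pass. It passed with 1 probe per gene (adjusted p = 0.0446), with H2O as the only control (adjusted p = 0.0236) and without LNCaP H2O array 1 (adjusted p = 0.0102). The difference between its responses (-0.75, SE 0.21, adjusted p = 0.0234) was lost without background correction (-0.24, adjusted p = 0.0901), in the authors' processed values (-0.14, adjusted p = 0.107), with H2O as the only control (adjusted p = 0.204) and when any of LNCaP DMSO array 3, LNCaP dilazep array 2 or LNCaP-abl dilazep arrays 2 and 3 was left out (adjusted p from 0.053 to 0.0584).

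The condensin II subunits NCAPG2 and NCAPD3 fell by like amounts in each line, more in LNCaP-abl than in LNCaP. NCAPG2, the counterpart of NCAPG, had a log2 level in LNCaP of 8.43 and 8.46 with H2O, 8.39 and 8.02 with DMSO, and 7.21, 7.04 and 7.36 with dilazep. In LNCaP-abl its level was 7.95 and 8.16, 8.36 and 7.96, and 6.27, 6.23 and 6.28. Dilazep arrays again lay below all control arrays of their line and were all detected. Its changes were -1.12 (SE 0.13, adjusted p = 6.58e-05) and -1.85 (SE 0.13, adjusted p = 3.5e-07), and their difference was -0.73 (SE 0.19, adjusted p = 0.0152).

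NCAPD3, the counterpart of NCAPD2 and a gene also known to respond to androgen in prostate cells, had a log2 level in LNCaP of 8.41 and 8.03 with H2O, 8.18 and 8.37 with DMSO, and 7.31, 7.20 and 7.16 with dilazep. In LNCaP-abl it was 7.59 and 7.80, 7.92 and 7.66, and 5.81, 5.89 and 5.57. Groups did not overlap in either line, and the LNCaP-abl controls all lay below the LNCaP controls. NCAPD3 changed by -1.02 (SE 0.13, adjusted p = 0.000112) in LNCaP and -1.99 (SE 0.13, adjusted p = 1.62e-07) in LNCaP-abl, with a difference of -0.96 (SE 0.18, adjusted p = 0.00312). Neither difference between the lines was called without background correction (-0.29 for NCAPG2 and -0.28 for NCAPD3, adjusted p = 0.0754 and 0.0634) or in the authors' processed values (-0.17 and -0.14, adjusted p = 0.177 and 0.229). The call for NCAPG2 was also lost with H2O as the only control (adjusted p = 0.111). Falls within each line were called in all these settings, with -0.93 for NCAPD3 in LNCaP-abl without background correction, and -0.64 for NCAPD3 and -0.73 for NCAPG2 in that line in the authors' processed values.

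SMC2 and SMC4, the ATPase pair shared by both condensins, fell in both lines at their brightest probes, more in LNCaP-abl than in LNCaP. The brightest SMC2 probe read 8.52 and 8.77 with H2O, 8.69 and 8.40 with DMSO, and 7.73, 7.78 and 7.75 with dilazep in LNCaP. In LNCaP-abl it read 8.10 and 7.96, 7.70 and 7.98, and 4.92, 5.39 and 5.55, with 2 of 3 dilazep arrays detected. Dilazep arrays lay below all controls of their line. The SMC2 changes were -0.84 (SE 0.15, adjusted p = 0.00108) and -2.64 (SE 0.15, adjusted p = 4.63e-08), and the responses differed by -1.80 (SE 0.21, adjusted p = 0.000123). In the authors' processed values the LNCaP-abl change was -0.83 and the difference -0.35, both called.

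The other SMC2 probes did not all follow the first. The second probe gave 7.96 and 7.67 with H2O, 7.82 and 7.30 with DMSO, and 6.08, 6.0 and 5.75 with dilazep in LNCaP. In LNCaP-abl it gave 7.47 and 8.03, 7.98 and 7.75, and 5.01, 5.01 and 4.94, where no dilazep array was detected. Its LNCaP change of -1.75 (SE 0.16, adjusted p = 1.21e-05) was larger than that of the first probe, and their 95% intervals (-2.11 to -1.39 and -1.17 to -0.52) did not overlap. That gap was narrower in other settings, with -0.84 against -0.59 without background correction and -0.58 against -0.48 in the authors' processed values. In LNCaP-abl the second probe was at least 5.49-fold lower (fitted change -2.82, adjusted p = 5.56e-08), with a change of -1.23 and -0.82 in those settings, both called. The difference between its responses (-1.07, adjusted p = 0.00633) was lost in the authors' processed values (-0.24, adjusted p = 0.096). The third was detected on 3 of 14 arrays and gave 0.30 (adjusted p = 0.101) and 0.14 (adjusted p = 0.451).

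SMC4 was read well by 1 of its 3 probes. In LNCaP that probe gave 10.91 and 10.77 with H2O, 10.64 and 10.77 with DMSO, and 9.96, 9.91 and 10.00 with dilazep. In LNCaP-abl it gave 11.28 and 11.01, 10.98 and 11.12, and 8.43, 8.50 and 8.58, and it was detected on all 14 arrays. No dilazep array reached its controls. The changes were -0.82 (SE 0.10, adjusted p = 0.000104) and -2.60 (SE 0.10, adjusted p = 1.89e-09), and the difference was -1.78 (SE 0.145, adjusted p = 5.92e-06). The second probe was detected on 2 arrays and gave -0.20 and -0.04, neither called. The third was detected on 6 control arrays and no dilazep array, and was at least 1.28-fold lower in LNCaP (adjusted p = 0.013) and at least 1.04-fold lower in LNCaP-abl (adjusted p = 0.0121). The LNCaP groups overlapped, with the undetected LNCaP DMSO array 2 at 5.02 and LNCaP dilazep array 4 at 5.20. Without dilazep replicate 1 of the same line these calls were lost (adjusted p = 0.0534 in LNCaP and 0.0544 in LNCaP-abl), as was the LNCaP call with DMSO alone (0.118) and the LNCaP-abl call with H2O alone (0.0915). In the authors' processed values the changes at this probe were -0.16 and -0.19. The plot of every SMC probe shows that only the probes well above background in the controls fell far.

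**Figure D2:**
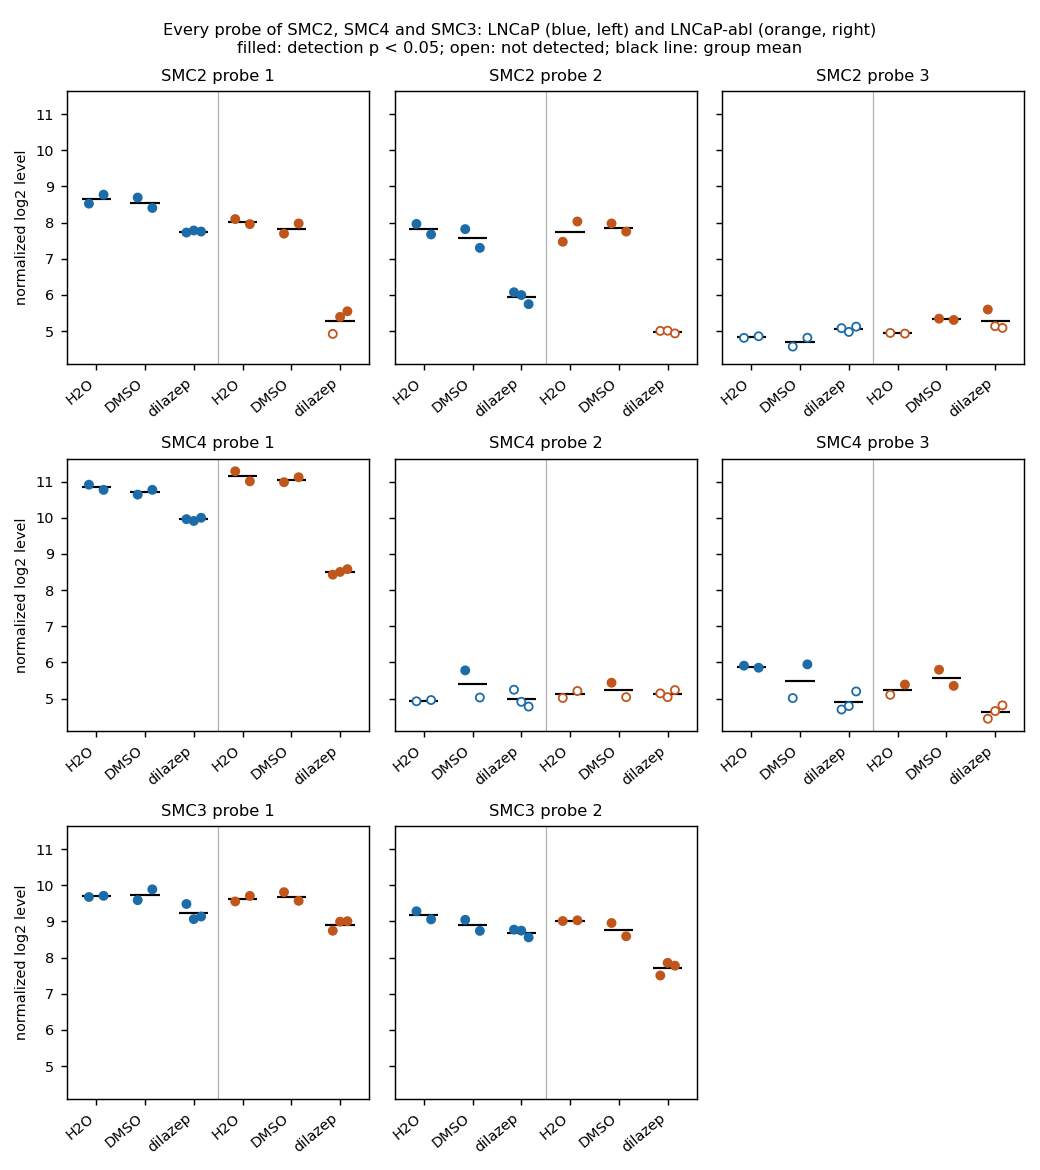
Normalized log2 level (vertical axis) on each array for the 3 probes of SMC2, the 3 of SMC4 and the 2 of SMC3, by vehicle or dilazep in both lines. Points are arrays, open where not detected, and lines are group means. SMC2 probe 3 and SMC4 probes 2 and 3 stay below 6 on all arrays, while the brightest SMC4 probe falls from at least 10.98 to at most 8.58 in LNCaP-abl.

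SMC3, the measured member of the cohesin ATPase pair, fell at its brighter probe in both lines. In LNCaP-abl that change was the smallest among the 9 genes with the main processing. In the authors' processed values NCAPH changed less there (-0.24 against -0.57 for SMC3). Its brighter probe read 9.67 and 9.71 with H2O, 9.59 and 9.88 with DMSO, and 9.48, 9.06 and 9.13 with dilazep in LNCaP. In LNCaP-abl it read 9.55 and 9.70, 9.81 and 9.57, and 8.74, 8.99 and 9.01. The dilazep arrays were all lower than their controls, in LNCaP by as little as the gap between 9.48 and 9.59. The changes were -0.49 (SE 0.13, adjusted p = 0.0141) in LNCaP and -0.74 (SE 0.13, adjusted p = 0.000754) in LNCaP-abl, or 1.40-fold and 1.68-fold lower. Leaving out LNCaP DMSO array 3 or LNCaP dilazep array 2 or 4 removed the LNCaP call (adjusted p = 0.0538, 0.0674 and 0.0535). The responses of this probe differed by -0.26, with a 95% interval from -0.67 to 0.15 (adjusted p = 0.372), and with median scaling the difference was -0.56, at the threshold (adjusted p = 0.05 after rounding).

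The second SMC3 probe gave 9.28 and 9.05 with H2O, 9.04 and 8.74 with DMSO, and 8.77, 8.74 and 8.56 with dilazep in LNCaP. In LNCaP-abl it gave 9.01 and 9.03, 8.96 and 8.59, and 7.50, 7.85 and 7.78. Its groups overlapped in LNCaP and not in LNCaP-abl. The changes at this probe were -0.34 (SE 0.13, adjusted p = 0.0748) and -1.18 (SE 0.13, adjusted p = 1.93e-05), and here the responses differed, by -0.85 (SE 0.19, adjusted p = 0.00747). The intervals of the difference at the 2 probes overlapped (-0.67 to 0.15 and -1.26 to -0.43), so they fall on opposite sides of the threshold without being shown to differ. The LNCaP change of the second probe was called in 4 alternatives: without background correction, with an offset of 50, in the authors' processed values and with H2O alone (adjusted p from 0.0224 to 0.0447).

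TOP2A, the decatenating enzyme and a common marker of proliferating cells, was the other member with a very large fall. Its log2 level in LNCaP was 10.41 and 10.42 with H2O, 10.30 and 10.14 with DMSO, and 8.95, 8.80 and 8.81 with dilazep. In LNCaP-abl it was 10.33 and 10.30, 10.20 and 10.23, and 5.23, 5.92 and 5.60, with 2 of 3 dilazep arrays detected. All dilazep arrays were below all controls, by over 1 log2 unit in LNCaP and over 4 in LNCaP-abl. TOP2A changed by -1.47 (SE 0.14, adjusted p = 1.3e-05) and -4.68 (SE 0.14, adjusted p = 1.98e-10), or 2.77-fold and 25.7-fold lower, and its responses differed by -3.22 (SE 0.20, adjusted p = 6.17e-07). The LNCaP-abl change was -2.99 without background correction and -2.45 in the authors' processed values, and the difference -1.73 and -1.28, all called.

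**Figure D3:**
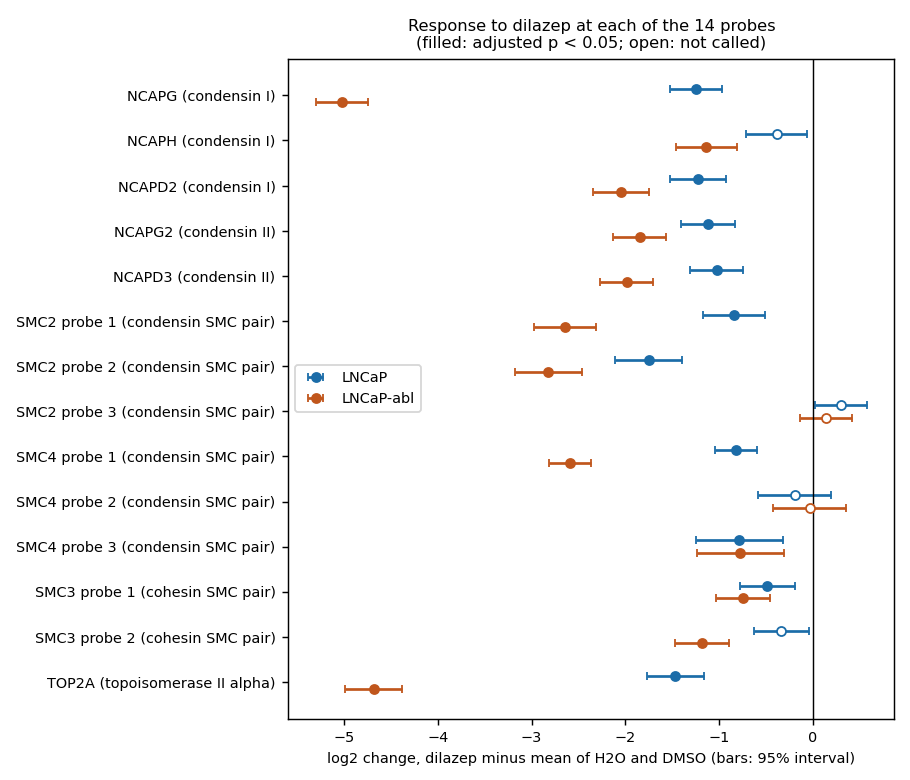
Log2 change with dilazep (horizontal axis) at each of the 14 probes, in LNCaP (blue) and LNCaP-abl (orange), with 95% intervals, and filled points for calls at adjusted p under 0.05. In LNCaP-abl the changes run from -5.02 for NCAPG to 0.14 for the third SMC2 probe, and in LNCaP from -1.75 to 0.30.

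Set side by side, the complexes differed in the size of their response more in LNCaP-abl than in LNCaP, as values and without a test between genes. At the brightest probe of each gene the LNCaP medians were -1.23 for the 3 condensin I genes and -1.07 for the 2 condensin II genes. They were -0.83 for SMC2 and SMC4, -0.49 for SMC3 and -1.47 for TOP2A. The second SMC2 probe changed by -1.75 in LNCaP, more than any of these medians. In LNCaP-abl the medians were -2.05, -1.92, -2.62, -0.74 and -4.68 in the same order. The medians of condensin I and condensin II in LNCaP-abl were -1.42 and -0.97 without background correction and -1.16 and -0.68 in the authors' processed values. Fitted changes within condensin I ran in LNCaP-abl from -5.02 for NCAPG to -1.14 for the dim NCAPH. Control means were 10.37 for NCAPG and 5.85 for NCAPH, and dilazep means, near background, were 5.34 and 4.71. NCAPH thus had little room to fall, and its change and interval rest on undetected levels. Whether the 2 subunits respond differently was not tested. In LNCaP-abl the 95% interval of NCAPG (-5.30 to -4.75) lay apart from those of NCAPD2 (-2.34 to -1.75) and NCAPG2 (-2.14 to -1.56). In the same line the interval of the brighter SMC3 probe (-1.03 to -0.45) lay apart from those of NCAPD2, NCAPG2, NCAPD3 (-2.27 to -1.70), SMC2, SMC4 and TOP2A, and overlapped that of NCAPH (-1.46 to -0.82). The second SMC3 probe fell further (-1.18, interval -1.48 to -0.89), still apart from the same genes and overlapping NCAPH. These gaps depend on the processing. In the authors' processed values the SMC3 probes changed by -0.57 and -0.70 in LNCaP-abl. Beside them were -0.64 for NCAPD3, -0.73 for NCAPG2, -0.83 for SMC2 and -0.24 for NCAPH.

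Between the lines given vehicle, the members differed in both directions, with log2 differences from -0.67 to 0.78. Of 9 genes, 4 were called among the controls, 2 lower and 2 higher in LNCaP-abl, where 45.0% of all genes were called. The share of members called is near that over all genes. SMC2 was lower in LNCaP-abl by its brightest probe (-0.67, SE 0.14, adjusted p = 0.00248), though its second probe gave 0.12 (adjusted p = 0.594). NCAPD3 was lower too (-0.50, SE 0.12, adjusted p = 0.00577). NCAPH (0.78, SE 0.14, adjusted p = 0.000732) and SMC4 (0.32, SE 0.09, adjusted p = 0.0179) were higher in LNCaP-abl. The NCAPH difference was 0.26 without background correction and 0.15 in the authors' processed values, both called. With H2O as the only control, SMC2 and NCAPD3 were called, and with DMSO alone SMC2 and NCAPH. The SMC4 call was also lost without any of LNCaP H2O array 3, LNCaP DMSO array 2, LNCaP-abl H2O array 2 or LNCaP-abl DMSO array 3 (adjusted p from 0.0582 to 0.0746). NCAPG (0.02) and TOP2A (-0.06) had intervals of -0.24 to 0.27 and -0.34 to 0.22 between the lines. The third SMC2 probe, near background, was higher in LNCaP-abl (0.37, adjusted p = 0.0281) and lost that call when any of 7 control arrays was left out.

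Under dilazep most members were lower in LNCaP-abl. There, 7 of 9 genes were lower than in LNCaP and none was higher, where 27% of all genes were lower. NCAPG was lower by a log2 difference of -3.76 (SE 0.14, adjusted p = 8e-10) and TOP2A by -3.27 (SE 0.15, adjusted p = 5.46e-09). SMC2 followed at -2.47, NCAPD3 at -1.46, SMC4 at -1.45, NCAPG2 at -0.94 and NCAPD2 at -0.67. In the authors' processed values all 7 were called at smaller sizes, from -1.55 for NCAPG and -1.33 for TOP2A to -0.30 for NCAPG2 and -0.29 for NCAPD2. The second SMC2 probe gave -0.95 (adjusted p = 0.000847), and -0.18, not called, in the authors' processed values (adjusted p = 0.067). NCAPH was not detected on any dilazep array of either line. SMC3 gave -0.31 (adjusted p = 0.101) at its brighter probe and -0.98 (SE 0.14, adjusted p = 0.000141) at its second. The call of the second SMC3 probe held in every alternative. With median scaling the median of all probes in this comparison moved to -0.11, and 32.5% in place of 49.7% of all called probes were higher. The brighter SMC3 probe was then called at -0.58 (adjusted p = 0.00558). DMSO and H2O gave no called probe in limma over both lines (0% of genes called). At an unadjusted p under 0.05 there were 1117 of 24894 probes and 444 genes, with no member probe among them.

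The core subunits of condensin II and cohesin outside the members were lower or not called. NCAPH2, the kleisin of condensin II, changed by -0.25 (adjusted p = 0.239) in LNCaP and -1.20 (SE 0.15, adjusted p = 4.11e-05) in LNCaP-abl at its brighter probe, and its other probe gave -0.95 (adjusted p = 0.00522) and -1.42. Of 4 other measured cohesin core subunits, 3 fell in LNCaP and 2 in LNCaP-abl, with none higher. Over all genes 17.8% were lower in LNCaP and 21.5% in LNCaP-abl. RAD21, the cohesin kleisin, fell in both (-0.64 and -0.98), with -0.46 and -0.65, neither called, at its other probe. STAG1 fell in both (-0.92 and -1.59), and STAG2 in LNCaP (-0.62, with -0.18 in LNCaP-abl, and 0.42 and -0.29, neither called, at its other probe). STAG3, a meiotic subunit, gave -0.16 and -0.01 (adjusted p = 0.628 and 0.971). The median of these 4 was -0.63 in LNCaP and -0.58 in LNCaP-abl.

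Of 13 genes that load, release, acetylate or cleave cohesin, 9 fell and 1 rose in LNCaP (median -0.63), and 8 fell and 2 rose in LNCaP-abl (median -1.19). PTTG1, which encodes securin, changed by -2.0 and -3.40, and CDCA5, which encodes sororin, by -0.70 and -4.07. SGO1, which protects centromeric cohesin, changed by -1.33 in LNCaP and was at least 5.85-fold lower in LNCaP-abl, where dilazep arrays did not detect it, with -1.21 and -2.10 at its other probe. ESPL1, the separase gene, changed by -1.11 in LNCaP. SGO2 changed by -1.07 and -2.84, with -0.18 (not called) and -0.85 at its other probe. The loader gene NIPBL rose at its brighter probe (0.41, adjusted p = 0.0213, and 0.49, adjusted p = 0.00691), while its other probe gave -0.06 and -0.55 (adjusted p = 0.83 and 0.0188), so its direction is not settled. MAU2, the partner of NIPBL, rose in LNCaP-abl by 0.32 (adjusted p = 0.0366).

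The SMC5/6 complex, another SMC machine with roles in DNA repair, had few called genes. Of its 8 measured genes, at their brightest probes, 2 rose and none fell in LNCaP (median 0.24), and 2 fell and none rose in LNCaP-abl (median -0.10). These shares are near those over all genes, of which 21.8% were higher in LNCaP and 21.5% lower in LNCaP-abl. SMC5 rose in LNCaP by 0.88 (SE 0.19, adjusted p = 0.0034). SMC6 was higher in LNCaP (0.55, adjusted p = 0.0121) and lower in LNCaP-abl (-0.64, adjusted p = 0.00443). SLF1, which recruits the complex to damaged DNA, fell in LNCaP-abl by 1.75 on the log2 scale (adjusted p = 9.77e-07). Its other probe fell in both lines, by -0.64 (adjusted p = 0.022) in LNCaP and -1.58 in LNCaP-abl. The dimmer SLF2 probe rose in LNCaP (0.99, adjusted p = 0.000771), with -0.40, not called, in LNCaP-abl.

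The other topoisomerase genes had changes between -1.28 and 0.44 in the 2 lines at their brightest probes, set beside -1.47 and -4.68 for TOP2A. Of 5, 1 rose and none fell in LNCaP (median 0.29), and 2 fell and 1 rose in LNCaP-abl (median -0.13). Over all genes 21.8% were higher in LNCaP, and 21.5% were lower and 25% higher in LNCaP-abl. The single rises are near the shares over all genes. TOP2B, the paralogue that serves non-dividing cells too, changed by -0.26 (adjusted p = 0.0602) and -0.41 (SE 0.10, adjusted p = 0.00476), and was 0.80 higher in LNCaP-abl than in LNCaP among the controls (adjusted p = 2.1e-05). TOP1 gave 0.05 and 0.09, neither called. TOP1MT, the mitochondrial enzyme, gave 0.44 (adjusted p = 0.0477) and -0.13, with 0.38 and 0.55 in LNCaP and -0.52 and 0.04 in LNCaP-abl at its other probes. TOP3A gave 0.36 (adjusted p = 0.303) and -1.28 (adjusted p = 0.00112), with -0.05 and -0.52 at its other probe, neither called, and TOP3B gave 0.29 (adjusted p = 0.125) and 0.38 (adjusted p = 0.0442).

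Genes of mitotic chromosomes and of S phase fell beside the condensins. Of 13 mitotic chromosome partners, 11 fell in LNCaP (median -1.19) and 12 in LNCaP-abl (median -3.16), and none rose. Over all genes 17.8% were lower in LNCaP and 21.5% in LNCaP-abl. KIF4A, the chromokinesin that works with condensin I, changed by -1.43 in LNCaP and was at least 6.31-fold lower in LNCaP-abl. The cyclin genes CCNA2 (-1.92 in LNCaP) and CCNB2 (-1.64 and -4.21) and the kinase gene CDK1 (-1.46 in LNCaP) also fell. AURKB, the kinase of the chromosomal passenger complex, was at least 18.8-fold lower in LNCaP-abl, and its partner BIRC5 changed by -3.93 there, though the other BIRC5 probe gave -0.99. Of 9 S phase genes, 8 fell in LNCaP (median -0.70) and 9 in LNCaP-abl (median -2.89), and none rose. Examples were TYMS (-1.37 and -3.53), RRM2 (-1.61 in LNCaP), and the helicase subunits MCM2 (-3.81), MCM4 (-3.53) and MCM7 (-2.89) in LNCaP-abl, with -1.78 at the other MCM7 probe. PCNA changed by -0.80 in LNCaP, with -1.59 at its other probe, and MCM7 by -0.70, with -1.28. The plot of both lines leaves out the S phase genes. In it the fitted change of NCAPG in LNCaP-abl lies below that of every mitotic partner (-5.02 against -4.84 for the lowest). The falls of AURKB and KIF4A are known there only as bounds, and NCAPG was detected on 1 of 3 dilazep arrays. The order of these falls is therefore not settled. TOP2A lies within the range of the mitotic partners, and SMC3 lies near RAD21.

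**Figure D4:**
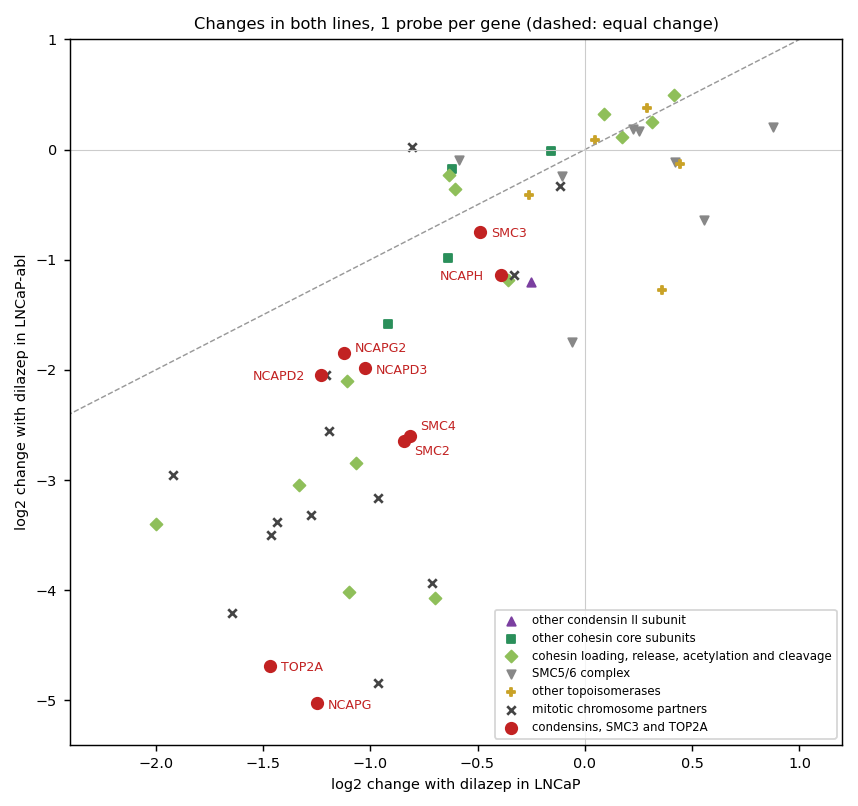
Log2 change with dilazep in LNCaP (horizontal axis) against that in LNCaP-abl (vertical axis), 1 point per gene. Shown are the 9 members (red, named) and the comparison lists other than the S phase genes. The axes have different scales, and the dashed line marks equal change. All 9 members lie below it, with NCAPG at -1.25 and -5.02 and SMC3 at -0.49 and -0.74.

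The genes with the group pattern most like a member's were found by the root mean square difference of the 6 group means, each profile centred on its own mean, among 11974 other genes. Closest to TOP2A were UBE2C (0.13 log2 units), which encodes a ubiquitin-conjugating enzyme of the anaphase-promoting complex, PIMREG (0.19) and CEP55 (0.19), a cytokinesis gene, where the median over all genes was 1.77. NCAPG was closest to CDC45 (0.15), part of the replicative helicase, followed by UBE2C (0.27) and CEP55 (0.30), with a median of 1.87. Around NCAPD3 were PSMC3IP (0.09), a probe annotated as MIR1228 (0.10) and the phosphatase gene CDC25B (0.10), with a median of 0.91. For SMC3 they were RAP1GAP2 (0.04), FOXK1 (0.05) and NME1 (0.05), with a median of 0.44. The ranking describes 6 means and carries no test.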

How the data were processed

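Total RNA of 2 cell lines was measured on 14 arrays. The table deposited by the authors holds, per the file headers, an unscaled intensity and a detection p-value for each probe on each array, for 47422 listings (47323 distinct probes, 99 repeats with identical values). A second deposited table holds the authors' processed values of 22912 probes on a log2 scale. It was used as an alternative, and its normalization is not given in the sources used here; the submitters' processing notes name lumi. Gene symbols came from the platform annotation and were updated by Entrez identifier: of 22912 annotated probes, 16501 had 1 symbol, 5 had several and 6406 were unnamed here. Samples were grouped by line and treatment from their labels. Array columns were matched to samples by title; a running sample number in the deposited header differs from that in the descriptions of the LNCaP-abl controls.

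Intensities were background corrected with normexp, taking negative control levels from the detection p-values, quantile normalized and log2 transformed (neqc, offset 16, limma 3.58.1, R 4.3.3). Probes with a detection p-value under 0.05 on at least 2 arrays were kept (24894). A model with 1 mean for each of 6 groups was fitted over the 14 arrays (lmFit, eBayes), with 6 two-sided contrasts and Benjamini-Hochberg adjustment over all kept probes, and was tested on simulated data. The kept probe with the highest mean level stands for its gene. Where no array of a group detected a probe, the fold is a bound. All member probes are reported, and from comparison lists up to 4 called genes per direction with the smallest p, or all of a list of few subunits. The members and lists were chosen with earlier results of these data known. Alternatives were no background correction, an offset of 50, median scaling, the processed values, other detection filters, 1 probe per gene, each vehicle alone, each line alone, a replicate block and leaving out each array. Same-numbered arrays did not deviate together within a line (8 pairs, r from -0.165 to 0.053), so the numbers were not taken as pairs. Array number limits the precision. Plots used matplotlib 3.10.9 under Python 3.11.15. Protein sequences were not used here.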

Additional observations from a re-analysis of the deposited data

Results flagged for a closer look

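For 10 of the 14 probes the response to dilazep differed between the lines by the test of the difference itself in limma. In each case it was more negative in LNCaP-abl, where 11.3% of all 24894 probes differed that way. The differences on the log2 scale were -3.77 for NCAPG, -3.22 for TOP2A, -1.80 and -1.07 for SMC2 probes 1 and 2, -1.78 for SMC4 probe 1, -0.96 for NCAPD3, -0.85 for SMC3 probe 2, -0.82 for NCAPD2, -0.75 for NCAPH and -0.73 for NCAPG2. Without background correction and in the authors' processed values these differences were -2.08 and -1.56 for NCAPG and -1.73 and -1.28 for TOP2A. NCAPG, TOP2A, SMC2 probe 1, SMC4 probe 1 and SMC3 probe 2 kept their call in every alternative run. In LNCaP-abl with dilazep, NCAPH and SMC2 probe 2 were detected on no array, so their differences rest on levels known only as a bound. NCAPG was detected there on 1 of 3 arrays, and TOP2A and SMC2 probe 1 on 2, so their differences rest partly on undetected levels.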

How the results depend on the processing

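No called change of a member probe reversed in any alternative: of 1092 recomputed values of called changes, 1048 kept their call and 44 lost it. The count of genes with a different response in the lines was 8, and 5 both without background correction and with the authors' processed values. The count between control lines was 4, and 2 with either H2O or DMSO as the only control. Leaving out 1 array at a time gave 7 to 9 genes for dilazep in LNCaP, 9 to 9 in LNCaP-abl, 7 to 8 for the difference, 3 to 4 between control lines, 7 to 7 between dilazep lines and 0 to 0 for the vehicles. Fits with the replicate number as a block (replicate block) called 7 genes in LNCaP, 9 in LNCaP-abl, 6 for the difference, 4 between control lines, 7 between dilazep lines and 0 for the vehicles. It removed the LNCaP call of the brighter SMC3 probe (adjusted p = 0.11) and the differences of NCAPG2 (0.0671) and NCAPH (0.0574). The same-number pairs, 22 in all, correlated from -0.165 to 0.186. Signal over background limits NCAPH, the dim probes of SMC2 and SMC4, and every member near background in LNCaP-abl with dilazep.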
